A study of Homo sapiens with 4 samples.

Results

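Lysosome and autophagy genes were examined in the MYCN-amplified neuroblastoma cell line SK-N-BE(2) after knockdown of the transcriptional co-regulator IRF2BP2. The set held 57 genes picked by function, with earlier results of these data known, from the 64252 rows of a gene count table. It covered the TFEB transcription factor family, lysosomal enzymes and membrane proteins, subunits of the vacuolar proton pump (V-ATPase) and the autophagy machinery. All 57 matched 1 Ensembl identifier each and passed the filter on low counts, so 57 of the 19093 genes tested were members. The 4 RNA sequencing libraries were 2 from cells given a short hairpin RNA against IRF2BP2 (shIRF2BP2) and 2 from cells given a scramble short hairpin RNA. No other agent, time point or genotype is named for either group. The labels name neither the number of hairpin sequences nor whether cells were cloned or selected, and do not say that replicates came from separate cultures. The p-values thus rest on library-to-library spread, which may be technical.

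The lysosome is the acidic compartment in which cells break down proteins, lipids and sugars, and autophagy is the route that delivers cytoplasm to it inside a double membrane. The factors TFEB, TFE3 and MITF bind a short palindromic E-box in the promoters of lysosomal genes, known as the CLEAR element, and raise their transcription when mTORC1 signalling at the lysosome is low. The pump acidifies the lumen. Its membrane sector, V0, carries the protons, and its cytosolic sector, V1, hydrolyses ATP. Autophagosomes form when the ULK kinase complex, a lipid kinase complex with BECN1 and ATG14, and a conjugation system that attaches ATG8 proteins to lipid act in turn.

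Total counts lay between 30847699 and 34684651 per library. IRF2BP2 itself had 89.6 and 87.6 CPM (counts per 1e6 counts of the library) in the shIRF2BP2 libraries, against 243 and 238 CPM in the scramble libraries. All 11 neuroblastoma markers examined were detected, with a summed level of 9101 and 9226 CPM with shIRF2BP2 and 8369 and 8769 CPM with scramble, most of it MYCN. Of 9 macrophage and microglia markers, which mark cells rich in lysosomes, AIF1, TYROBP, C1QA and C1QB had 0 counts in every library. The 9 summed to 4.44 and 3.78 CPM with shIRF2BP2 and to 4.87 and 7.26 CPM with scramble. The 5 melanocyte markers summed to 2.28 and 1.84 CPM with shIRF2BP2 and to 3.60 and 2.70 CPM with scramble, with TYR at 0 throughout. The 7 Schwann and glial markers summed to 3.35 and 3.16 CPM with shIRF2BP2 and to 2.51 and 2.51 CPM with scramble. The 6 fibroblast markers summed to 269.9 and 272 CPM with shIRF2BP2 and to 319 and 303 CPM with scramble, but they differed in direction. COL1A1 (31.0 CPM with shIRF2BP2, 6.89 with scramble) and COL3A1 (50.7 CPM with shIRF2BP2, 18.1 with scramble) rose, PDGFRB, LUM and DCN fell, and COL1A2 had 0 counts in both shIRF2BP2 libraries. The part of these cell type markers in the results on the set was not tested. In bulk RNA a change in the number of cells of a type and a change in RNA per cell cannot be told apart.

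Promoter sequences show where the E-box letters stand in genes of the set. RefSeq (GRCh38.p14) gave a promoter window for 45 of the 57 genes, from 250 bases before the annotated start to 50 bases after it. The letters CACGTG, which read the same on both strands, stood in 11 of the 45 windows (24.4%), against 10.1% of the 12029 windows of tested genes and 7.43% of all 27305 windows. The longer palindrome TCACGTGA, which contains CACGTG, stood in 5 of the 45 (11.1%), against 1.85% of the windows of tested genes and 1.04% of all windows. The stretches printed here are 100 or 200 bases directly before the start, 5′ to 3′ on the gene's strand, with CACGTG in capitals. The first 8 belong to genes that were higher with shIRF2BP2, CTSF to a gene with the letters that was not called, and GABARAPL2 to a gene that was lower and has no match. These stretches do not represent the set, since only 9 of the 23 higher members with a window held CACGTG. Higher members without a match, such as ATP6V0C, GLA, CTSL and TFE3, are not printed.
LAMP1 (chr13:113297039-113297238, plus strand): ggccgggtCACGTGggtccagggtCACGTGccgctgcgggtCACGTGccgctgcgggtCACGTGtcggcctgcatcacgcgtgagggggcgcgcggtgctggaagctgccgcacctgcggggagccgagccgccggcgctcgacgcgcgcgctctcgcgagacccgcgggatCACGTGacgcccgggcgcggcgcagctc
MCOLN1 (chr19:7522524-7522623, plus strand): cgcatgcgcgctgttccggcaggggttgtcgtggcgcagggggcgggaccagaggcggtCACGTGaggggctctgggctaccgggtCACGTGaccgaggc
CTSA (chr20:45891235-45891334, plus strand): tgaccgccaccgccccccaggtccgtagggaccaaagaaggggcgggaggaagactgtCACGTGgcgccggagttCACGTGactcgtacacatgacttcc
ATP6V0D1 (chr16:67481158-67481257, minus strand): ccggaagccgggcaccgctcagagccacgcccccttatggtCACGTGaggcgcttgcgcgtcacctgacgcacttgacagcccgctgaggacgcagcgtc
ATG3 (chr3:112561963-112562062, minus strand): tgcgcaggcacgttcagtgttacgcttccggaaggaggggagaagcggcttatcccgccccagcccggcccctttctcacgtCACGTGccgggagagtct
ATP6V0B (chr1:43974860-43974959, plus strand): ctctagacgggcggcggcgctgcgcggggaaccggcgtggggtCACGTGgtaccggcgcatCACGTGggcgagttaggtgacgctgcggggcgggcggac
CTSD (chr11:1763928-1764027, minus strand): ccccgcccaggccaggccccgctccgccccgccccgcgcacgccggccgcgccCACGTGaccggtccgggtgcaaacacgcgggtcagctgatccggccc
ATG14 (chr14:55411831-55411930, minus strand): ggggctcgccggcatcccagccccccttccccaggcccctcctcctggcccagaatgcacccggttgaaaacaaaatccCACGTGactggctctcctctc
CTSF (chr11:66568607-66568806, minus strand): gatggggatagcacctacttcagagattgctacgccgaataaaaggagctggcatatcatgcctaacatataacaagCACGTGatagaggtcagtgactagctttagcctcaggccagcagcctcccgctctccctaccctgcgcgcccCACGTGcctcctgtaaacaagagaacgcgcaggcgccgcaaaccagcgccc
GABARAPL2 (chr16:75566279-75566378, plus strand): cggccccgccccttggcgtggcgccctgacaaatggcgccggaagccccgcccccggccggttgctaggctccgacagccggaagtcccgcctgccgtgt
Within these stretches LAMP1 holds 5 copies, MCOLN1, CTSA, ATP6V0B and CTSF 2 each, and ATP6V0D1, ATG3, CTSD and ATG14 1 each. MCOLN1 was the 1 member in which TCACGTGA is also preceded by G and followed by C, as in 0.381% of all windows. A match of letters is a description of these windows and not a binding site, and E-boxes of this core are also bound by other factors, MYC proteins among them. MYCN RNA averaged 7125 CPM with shIRF2BP2 and 5439 CPM with scramble (log2 fold change 0.39, edgeR adjusted p = 5.09e-07). Which factors bind these windows was not tested.

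Against this background the set leaned towards higher levels after knockdown. With an edgeR quasi-likelihood adjusted p under 0.05 over all genes tested, 26 of the 57 genes rose, 9 fell and 22 were not called. That is 61.4% of the set, where 42.0% of all genes tested were called. In the set 45.6% were higher, where 20.6% of all genes tested were, and 15.8% were lower, where 21.4% were. The genes of the set were well expressed, and well expressed genes are called more often. Among the 10383 genes averaging 10 CPM or more, 59.1% were called, 28.6% higher and 30.4% lower. Of the 50 members with that mean, 70% were called, 48% higher and 22% lower. Among protein-coding genes 51.0% were called, 26.1% higher and 24.9% lower. The 18 autophagy genes of the set lay close to these shares, with 27.8% higher and 22.2% lower. So did 206 other pathway genes tested, with 28.2% higher and 23.8% lower.

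The changes were small. The median log2 fold change (shIRF2BP2 over scramble) was 0.16 over the set and -0.01 over all genes tested, and the middle 50% of the set lay between -0.13 and 0.42. Of the 35 called members, 5 were higher and 2 were lower by at least 1.5-fold, 28 (80%) moved by less, and 0 moved 2-fold. Of all 8016 called genes 57.8% also moved by less than 1.5-fold, while 563 were at least 2-fold higher and 1289 at least 2-fold lower. By libraries alone, 30 members had both shIRF2BP2 libraries above both scramble libraries, 16 had both below, and in 11 the groups overlapped. Over all genes tested, 70.4% had groups that do not overlap. Counted by letters, 9 of the 23 higher members with a promoter window held CACGTG, 0 of 4 lower ones and 2 of 18 not called. Only 4 of the 9 lower members had a window. The lower members ASAH1, ATP6V1A, ATP6V1B2, ATP6V1C1 and MAP1LC3A had none and could not be scored. Over all tested genes with a window the shares were 12.3% of the higher, 8.28% of the lower and 9.87% of the genes not called. Among other listed pathway genes CACGTG stood in 11 of 43 higher (25.6%), 5 of 41 lower (12.2%) and 12 of 75 uncalled genes (16%), and TCACGTGA in 5, 2 and 7 of them.

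**Figure D1:**
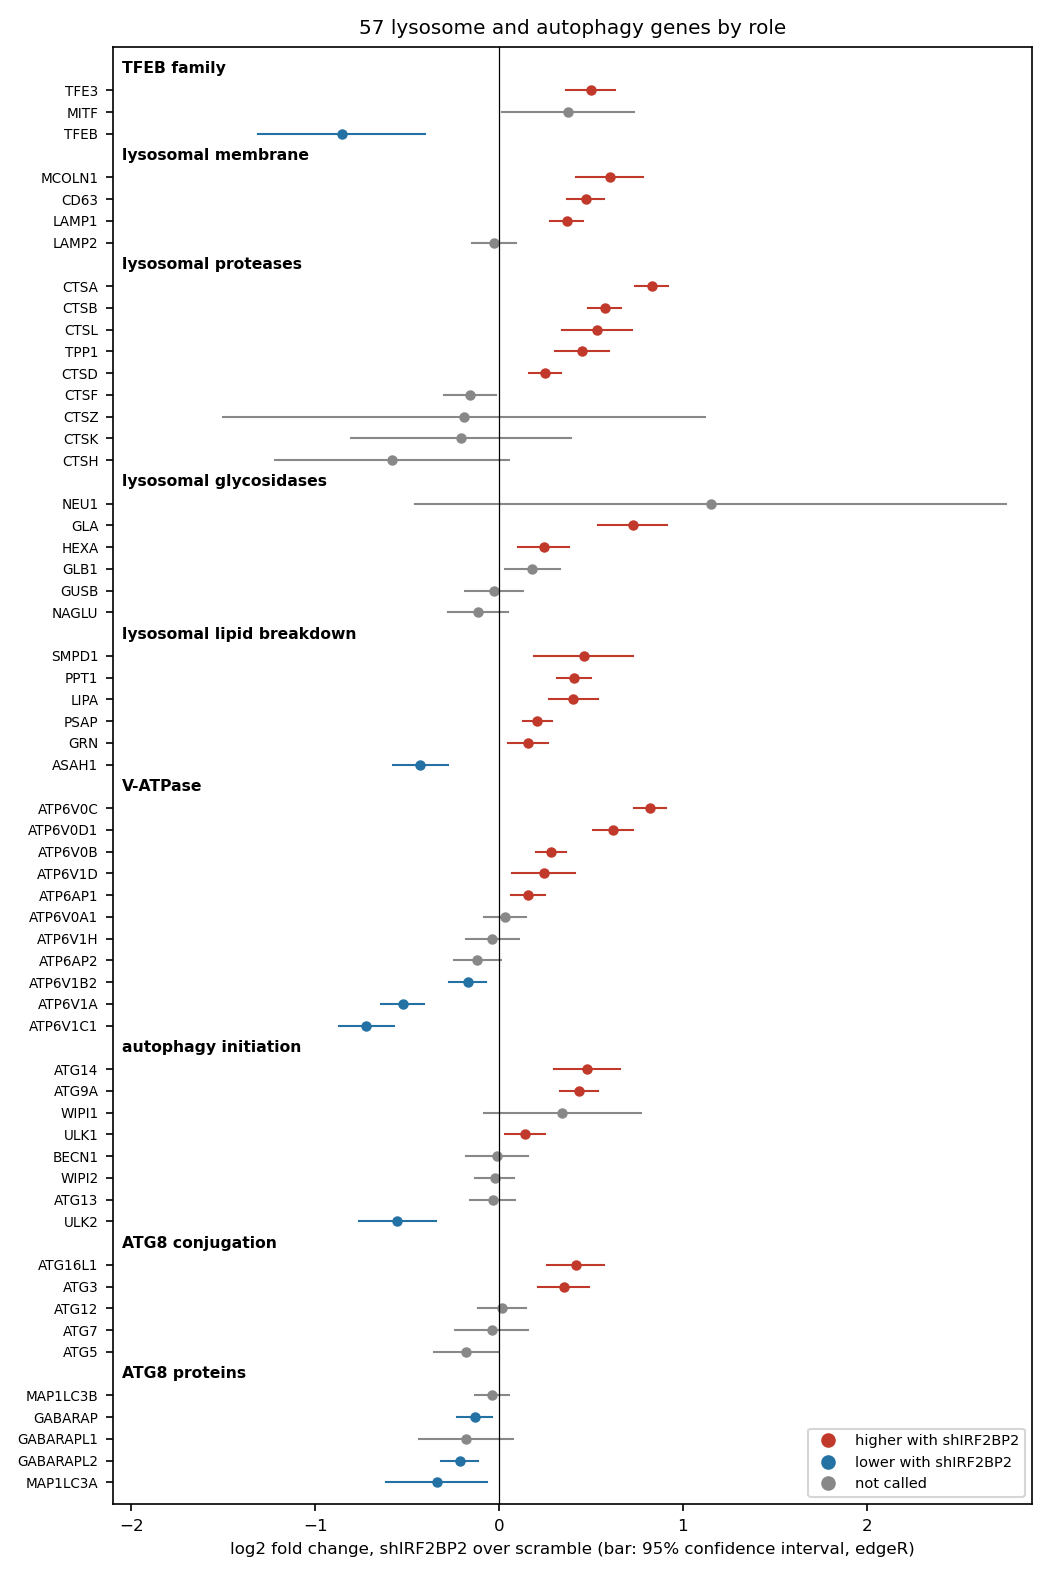
Log2 fold change (shIRF2BP2 over scramble) of the 57 genes, grouped by role, with the 95% confidence interval from edgeR; colour gives the call at an adjusted p under 0.05. Lysosomal enzymes and membrane proteins lie mostly right of 0, the V-ATPase spreads from -0.72 to 0.82, and all 5 ATG8 genes have point estimates below 0.

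The TFEB family members did not move together. TFE3, the most abundant of the 3 per exon length, had 61.7 and 60.4 CPM in the shIRF2BP2 libraries, against 42.9 and 43.5 CPM in the scramble libraries. Both knockdown libraries lay above both controls, and the rise was 1.41-fold (log2 fold change 0.50, standard error 0.06, edgeR adjusted p = 4.79e-05). The TFE3 gene spans 49028726 to 49043486 of chromosome X, minus strand (GRCh38).
TFEB had 2.66 and 2.87 CPM with shIRF2BP2, against 4.87 and 5.15 CPM with scramble. Its level was low in every library and fell 1.81-fold (log2 fold change -0.85, standard error 0.21, edgeR adjusted p = 0.00599). The TFEB gene spans 41683978 to 41736259 of chromosome 6, minus strand. MITF, best known as the master factor of melanocytes, had 7.57 and 7.03 CPM with shIRF2BP2, against 5.48 and 5.80 CPM with scramble, and was not called (log2 fold change 0.37, 95% interval 0.02 to 0.73, edgeR adjusted p = 0.0897). Per kilobase of exon, as CPM per kilobase (RPKM), TFE3 averaged 14.3 with shIRF2BP2 and 10.1 with scramble, MITF 1.02 and 0.785, and TFEB 0.490 and 0.887. In both groups TFE3 was thus over 10 RPKM and the other members at or under about 1 RPKM.

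Lysosomal membrane genes were higher in 3 of 4 cases (75%), beside 26.1% of protein-coding genes. MCOLN1, the calcium release channel of the lysosome, had 30.4 and 29.7 CPM with shIRF2BP2, against 20.5 and 19.2 CPM with scramble, a 1.52-fold rise (log2 fold change 0.60, edgeR adjusted p = 1.27e-04). CD63, a tetraspanin of late endosomes, had 214 and 230.2 CPM with shIRF2BP2, against 157 and 163 CPM with scramble (log2 fold change 0.47, edgeR adjusted p = 8.44e-06). LAMP1, a major glycoprotein of the membrane, had 256 and 255 CPM with shIRF2BP2, against 194 and 202 CPM with scramble (log2 fold change 0.37, edgeR adjusted p = 2.31e-05). In each of the 3 the groups did not overlap, and the promoter windows of all 3 held CACGTG. The related gene LAMP2, which is required for autophagosomes to fuse and for chaperone-mediated autophagy, had 75 and 69.9 CPM with shIRF2BP2 and 75.5 and 72.0 CPM with scramble. Its groups overlapped, and the log2 fold change of -0.03 had a 95% interval of -0.15 to 0.09. RefSeq gave no window for LAMP2.

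Of the 9 proteases 5 (55.6%) rose, 0 fell and 4 were not called, beside 26.1% higher and 24.9% lower among protein-coding genes. CTSA, the protective protein that stabilises beta-galactosidase and neuraminidase, had 132 and 134 CPM with shIRF2BP2, against 75.9 and 73.7 CPM with scramble. It rose 1.78-fold, the largest rise among the called members of the set (log2 fold change 0.83, standard error 0.04, edgeR adjusted p = 4.11e-08). The CTSA gene spans 45890144 to 45898820 of chromosome 20, plus strand, and shares 17.7% of its exon length with NEURL2 on the other strand, whose mean count was 45.8 against 3352 for CTSA. It also shares 3.4% with PLTP on the other strand, which had a mean count of 1022 and rose too (log2 fold change 0.46).
The cysteine protease gene CTSB had 272 and 279 CPM with shIRF2BP2, against 183 and 187 CPM with scramble (log2 fold change 0.57, edgeR adjusted p = 6.04e-07). CTSL, a related cysteine protease, had 31.2 and 31.7 CPM with shIRF2BP2, against 20.4 and 23.1 CPM with scramble (log2 fold change 0.53, edgeR adjusted p = 4.20e-04). TPP1, a tripeptidyl peptidase lost in a childhood neuronal ceroid lipofuscinosis, had 63.6 and 70.2 CPM with shIRF2BP2, against 50.5 and 47.4 CPM with scramble (log2 fold change 0.45, edgeR adjusted p = 2.28e-04). These 3 genes changed by between 1.37-fold and 1.49-fold, and their groups did not overlap.
The aspartic protease gene CTSD was the highest of the proteases per exon length, at 56.3 RPKM with shIRF2BP2 and 47.3 RPKM with scramble. It had 172 and 179 CPM with shIRF2BP2, against 146 and 149 CPM with scramble, a rise of 0.25 on the log2 scale (edgeR adjusted p = 3.74e-04). CTSF had 50.6 and 50.5 CPM with shIRF2BP2 and 54.2 and 58.7 CPM with scramble and was not called (log2 fold change -0.16, edgeR adjusted p = 0.0682). Without scramble replicate 1 it was called lower (log2 fold change -0.21, edgeR adjusted p = 0.0299). The remaining cathepsins were scarce, with CTSH, CTSK and CTSZ under 3 CPM in every library and not called. Their 95% intervals were -1.22 to 0.05 for CTSH, -0.80 to 0.39 for CTSK and -1.50 to 1.12 for CTSZ, so that changes of the size seen in CTSB were not detectable at this depth for CTSZ.

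Of the 6 glycosidases 2 (33.3%) rose and 4 were not called, which is close to the 26.1% higher among protein-coding genes. GLA, the alpha-galactosidase deficient in Fabry disease, had 32.5 and 32.0 CPM with shIRF2BP2, against 20.6 and 18.4 CPM with scramble. That was a 1.65-fold rise (log2 fold change 0.73, edgeR adjusted p = 4.29e-05), with no overlap of the groups. HEXA, the alpha subunit of beta-hexosaminidase, had 57 and 58.8 CPM with shIRF2BP2, against 50.5 and 47.3 CPM with scramble (log2 fold change 0.24, edgeR adjusted p = 0.00880). GLB1, the beta-galactosidase, had 48.0 and 51.7 CPM with shIRF2BP2 and 43.4 and 44.5 CPM with scramble and lay at the threshold (log2 fold change 0.18, edgeR adjusted p = 0.0502). It was called without shIRF2BP2 replicate 1 (edgeR adjusted p = 0.0403). GUSB, the beta-glucuronidase, had the highest level of the 6 per exon length in scramble cells (11.5 RPKM, with 11.3 RPKM after knockdown). Its values of 43.1 and 47.4 CPM with shIRF2BP2 and 44.9 and 47.2 CPM with scramble overlapped, and the interval of its log2 fold change was -0.18 to 0.13. NAGLU, which removes N-acetylglucosamine from heparan sulfate, was not called either (log2 fold change -0.11).
NEU1, the lysosomal sialidase, differed widely between libraries of 1 group, with 7.13 and 4.41 CPM with shIRF2BP2 and 1.41 and 3.81 CPM with scramble. It was not called (log2 fold change 1.15, 95% interval -0.45 to 2.76, edgeR adjusted p = 0.202), but it was without scramble replicate 2 (log2 fold change 2.03, edgeR adjusted p = 6.39e-04). NEU1 lies in the major histocompatibility region on chromosome 6, for which the hg38 assembly holds alternate haplotype sequences. The table lists 7661 identifiers that the GENCODE 29 primary annotation does not hold, and whether reads of NEU1 were divided among such copies was not tested.

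Genes listed under lipid breakdown, with GRN counted among them, were higher in 5 of 6 cases (83.3%), with ASAH1 the exception. Among protein-coding genes 26.1% were higher. PSAP, the precursor of the saposins that present sphingolipids to their hydrolases, was the highest of all 57 genes per exon length, at 219 RPKM with shIRF2BP2 and 190 RPKM with scramble. It had 702 and 718 CPM with shIRF2BP2, against 621 and 607 CPM with scramble (log2 fold change 0.21, edgeR adjusted p = 6.25e-04). PPT1, the palmitoyl-protein thioesterase, had 155 and 151 CPM with shIRF2BP2, against 118 and 111 CPM with scramble (log2 fold change 0.41, edgeR adjusted p = 1.31e-05). PPT1 shares 23.4% of its exon length with CAP1 on the opposite strand, which also rose (log2 fold change 0.26), and because the library kit does not mark strand their reads cannot be told apart there.
LIPA, the acid lipase, had 83.0 and 78.8 CPM with shIRF2BP2, against 64.3 and 57.8 CPM with scramble (log2 fold change 0.40, edgeR adjusted p = 2.58e-04). SMPD1, the acid sphingomyelinase, had 13.6 and 12.8 CPM with shIRF2BP2, against 9.71 and 9.51 CPM with scramble (log2 fold change 0.46, edgeR adjusted p = 0.0102), and its call was lost without shIRF2BP2 replicate 1 (edgeR adjusted p = 0.0680). ASAH1, the acid ceramidase, went the other way, with 44.5 and 44.5 CPM in shIRF2BP2 libraries, against 63.0 and 56.7 CPM in scramble libraries, 1.34-fold lower (log2 fold change -0.43, edgeR adjusted p = 3.71e-04). Both knockdown libraries lay below both controls. GRN, the progranulin gene, rose by 0.16 on the log2 scale (edgeR adjusted p = 0.0216), a call that was lost without scramble replicate 1 (0.126), shIRF2BP2 replicate 1 (0.0575) or shIRF2BP2 replicate 2 (0.0974), as edgeR adjusted p.

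**Figure D2:**
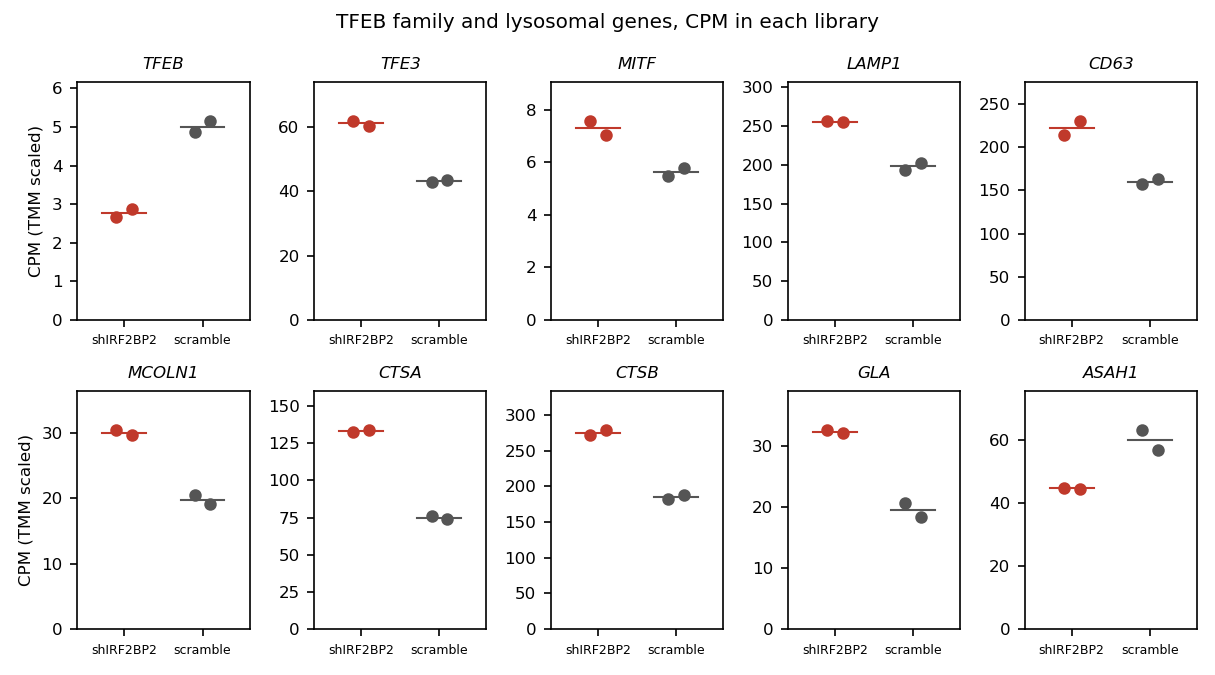
CPM of 10 genes of the TFEB family and the lysosome in each of the 4 libraries, with the 2 shIRF2BP2 libraries (red) left of the 2 scramble libraries (grey) and a line at each mean; every axis starts at 0. TFE3 and the lysosomal genes other than ASAH1 are higher in both shIRF2BP2 libraries, while TFEB and ASAH1 are lower in both.

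Across the 25 lysosomal enzymes and membrane proteins together, 15 (60%) rose, 1 (4%) fell and 9 were not called, beside 26.1% and 24.9% of protein-coding genes. Their median log2 fold change was 0.25. In a further list of 37 lysosomal enzymes outside the set, 8 (21.6%) rose, 10 (27.0%) fell and 19 were not called, and the median was 0.04. Without shIRF2BP2 replicate 1 the counts were 5 higher and 6 lower, and without scramble replicate 2 6 and 6. PLBD2 (0.31) and the asparaginyl protease gene LGMN (0.30) were among those that rose on the log2 scale. SIAE, a sialic acid esterase (-1.06), GAA, the acid alpha-glucosidase that degrades glycogen (-0.72), and the cathepsin gene CTSV (-0.68) fell. Of 24 other lysosomal membrane genes tested, 9 (37.5%) rose, 3 (12.5%) fell and 12 were not called, and the median was 0.16. The amino acid transporter gene SLC36A1 (0.78), the sialic acid exporter gene SLC17A5 (0.55) and SCARB2, the receptor that carries glucocerebrosidase (0.53), rose, while LITAF (-0.53), ABCA2 (-0.36) and LAPTM4A (-0.19) fell. The listed enzymes outside the set thus had calls in both directions.

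Within the V-ATPase the sectors had different counts of calls. Of the 4 V0 genes in the set 3 rose, 0 fell and 1 was not called (median log2 fold change 0.45). Of the 5 V1 genes 1 rose, 3 fell and 1 was not called (median -0.17). The difference between the sectors was not tested, and of protein-coding genes 26.1% were higher and 24.9% lower. Subunit genes outside the set did not repeat it. Of 4 other V0 genes tested 1 rose and 2 fell, and of 7 other V1 genes tested 2 rose and 0 fell.
ATP6V0C, which encodes the proteolipid of the rotating ring, had 183 and 176 CPM with shIRF2BP2, against 100.1 and 103 CPM with scramble. It rose 1.77-fold (log2 fold change 0.82, standard error 0.04, edgeR adjusted p = 4.10e-08), spans 2513870 to 2520218 of chromosome 16, plus strand, and had the highest level of the pump genes per exon length, 120.0 RPKM with shIRF2BP2 and 67.9 RPKM with scramble. The annotated gene AC093525.2, on the same strand, covers 57.5% of its exon length with a mean count of 85.3 against 4535 for ATP6V0C.
ATP6V0D1, the subunit that couples the ring to the central stalk, had 93.6 and 98.9 CPM with shIRF2BP2, against 63.6 and 61.5 CPM with scramble (log2 fold change 0.62, edgeR adjusted p = 1.94e-06). ATP6V0B, another ring subunit, rose by 0.28 on the log2 scale (edgeR adjusted p = 8.43e-05). ATP6V0A1, the proton channel subunit prominent in neurons, had 74.4 and 71.1 CPM with shIRF2BP2 and 70.5 and 71.8 CPM with scramble, overlapping, with an interval of -0.08 to 0.14 for its log2 fold change.
ATP6V1A, the catalytic subunit, had 51.6 and 51.0 CPM with shIRF2BP2, against 73.8 and 73.7 CPM with scramble, 1.44-fold lower (log2 fold change -0.52, edgeR adjusted p = 1.29e-05). The gene spans 113747019 to 113812056 of chromosome 3, plus strand. ATP6V1C1, which links the stator to the membrane sector when the pump assembles, had 34.7 and 37.1 CPM with shIRF2BP2, against 60.3 and 58.0 CPM with scramble, 1.65-fold lower (log2 fold change -0.72, edgeR adjusted p = 6.34e-06). In both genes the groups lay far apart relative to the spread within each pair.
ATP6V1B2, the nucleotide-binding partner of ATP6V1A, had 147 and 136 CPM with shIRF2BP2, against 162 and 156 CPM with scramble (log2 fold change -0.17, edgeR adjusted p = 0.0109), a call lost without shIRF2BP2 replicate 2 (edgeR adjusted p = 0.170). ATP6V1D, a subunit of the central stalk, rose by 0.24 on the log2 scale (edgeR adjusted p = 0.0259), a call lost without scramble replicate 2 (0.158), shIRF2BP2 replicate 1 (0.0950) or shIRF2BP2 replicate 2 (0.0531), as edgeR adjusted p. ATP6V1D overlaps EIF2S1 on the opposite strand over 6.3% of its exon length, and EIF2S1 had a mean count of 4870 against 1308. ATP6V1H, the regulatory subunit, had 50.1 and 49.4 CPM with shIRF2BP2 and 52.8 and 49.2 CPM with scramble and was not called (95% interval -0.18 to 0.11). Of the accessory genes, ATP6AP1 rose by 0.16 (edgeR adjusted p = 0.00974, but 0.0766 without shIRF2BP2 replicate 1), and ATP6AP2 had -0.12 and was not called.

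**Figure D3:**
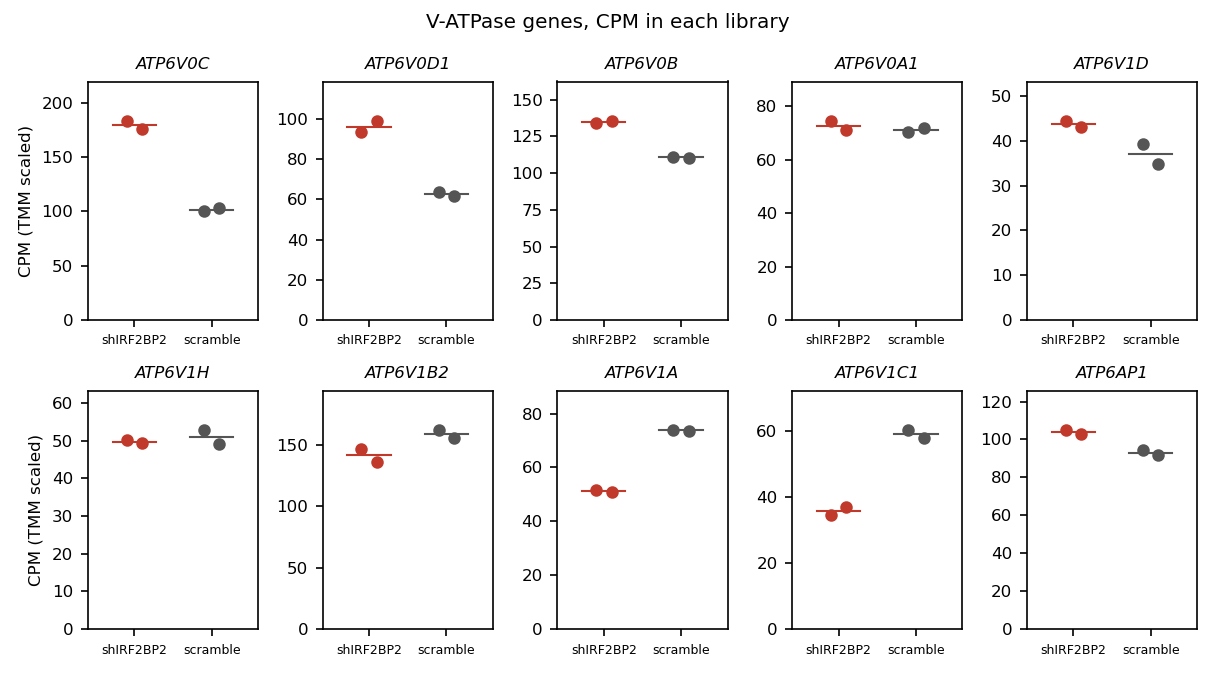
CPM of 10 V-ATPase genes in each library, with shIRF2BP2 (red) left of scramble (grey), a line at each mean and axes from 0. ATP6V0C, ATP6V0D1 and ATP6V0B are higher in both shIRF2BP2 libraries and ATP6V1A, ATP6V1B2 and ATP6V1C1 lower in both, while the groups of ATP6V0A1 and ATP6V1H overlap.

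Pump genes outside the set were also mixed, with 21.1% higher and 31.6% lower, beside 26.1% and 24.9% of protein-coding genes. Of 19 tested, 4 rose, 6 fell and 9 were not called (median -0.09), but 3 were lower without shIRF2BP2 replicate 1 and 2 higher without shIRF2BP2 replicate 2. The membrane-sector genes ATP6V0E1 (0.64) and ATP6V0E2 (-0.50), which encode alternative forms of subunit e, moved in opposite directions. The assembly factor gene VMA21 (0.58) and ATP6V1F (0.23) rose, and ROGDI (-0.44) and DMXL1 (-0.39), which encode parts of the complex that reassembles the pump, fell. Of the 4 other V0 subunit genes tested 1 rose, 2 fell and 1 was not called, with TCIRG1 the lowest (-0.99, edgeR adjusted p = 0.00406, at 2.41 CPM with shIRF2BP2 and 4.77 CPM with scramble). Among the 7 other V1 subunit genes tested, 2 rose, 0 fell and 5 were not called, so the lower levels in the set were those of ATP6V1A, ATP6V1B2 and ATP6V1C1.

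Of the 18 autophagy genes in the set 5 (27.8%) were higher, 4 (22.2%) lower and 9 uncalled (median log2 fold change -0.03), close to the 26.1% and 24.9% of protein-coding genes. Among the initiation genes, ATG9A, the lipid scramblase of the vesicles that seed the autophagosome, had 96.0 and 102 CPM with shIRF2BP2, against 74.0 and 72.1 CPM with scramble (log2 fold change 0.44, edgeR adjusted p = 2.05e-05). It was the highest of the initiation genes per exon length, at 20.9 RPKM with shIRF2BP2 and 15.5 RPKM with scramble. ATG14, which directs the lipid kinase complex to the site of formation, had 36.7 and 33.5 CPM with shIRF2BP2, against 24.5 and 25.8 CPM with scramble (log2 fold change 0.48, edgeR adjusted p = 6.11e-04).
The kinase genes ULK1 and ULK2 had changes of opposite sign. ULK2 had 15.6 and 14.4 CPM with shIRF2BP2, against 22.2 and 21.9 CPM with scramble (log2 fold change -0.55, edgeR adjusted p = 6.52e-04), a fall with no overlap. ULK1 had 77.4 and 77.0 CPM with shIRF2BP2, against 68.4 and 71.7 CPM with scramble (log2 fold change 0.14, edgeR adjusted p = 0.0427). The ULK1 call was lost without scramble replicate 1 (0.155), shIRF2BP2 replicate 1 (0.142) or shIRF2BP2 replicate 2 (0.116), as edgeR adjusted p.
ATG13, a partner of the ULK kinases, had 86.8 and 81.7 CPM with shIRF2BP2 and 90.2 and 82.1 CPM with scramble, with an interval of -0.16 to 0.09. BECN1, the core of the lipid kinase complex, had 35.8 and 39.0 CPM with shIRF2BP2 and 36.4 and 38.9 CPM with scramble, with an interval of -0.18 to 0.16. The lipid-binding genes WIPI2 (-0.02, interval -0.13 to 0.08) and WIPI1 (0.34, interval -0.08 to 0.77) were not called either. WIPI1 shares 24.3% of its exon length with ARSG on the opposite strand, which fell by 0.60 on the log2 scale.

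In the conjugation system 2 of 5 genes (40%) rose and 3 were not called, beside 26.1% higher among protein-coding genes. ATG3, the enzyme that passes ATG8 proteins to lipid, had 65.1 and 70.8 CPM with shIRF2BP2, against 54.7 and 51.7 CPM with scramble (log2 fold change 0.35, edgeR adjusted p = 8.29e-04). ATG16L1, which sets where the transfer happens, had 62.4 and 59.6 CPM with shIRF2BP2, against 48.4 and 42.9 CPM with scramble (log2 fold change 0.42, edgeR adjusted p = 6.03e-04). ATG12, which is joined to ATG5 as part of the same ligase, had 55.3 and 53.7 CPM with shIRF2BP2 and 53.1 and 54.6 CPM with scramble, with an interval of -0.11 to 0.15. Neither ATG5 (log2 fold change -0.18, edgeR adjusted p = 0.0907) nor ATG7, the activating enzyme (-0.04), was called. ATG7 shares 18.1% of its exon length with VGLL4 on the other strand, which had a mean count of 5312 against 939 and rose by 0.49 on the log2 scale.

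The ATG8 genes themselves were the 1 role in which no member rose. Of 5, 3 (60%) fell and 2 were not called, where 24.9% of protein-coding genes were lower. The summed level of the 5 was 298 and 289 CPM with shIRF2BP2 and 321 and 322 CPM with scramble. GABARAPL2 had 72.4 and 72.4 CPM with shIRF2BP2, against 84.1 and 83.8 CPM with scramble (log2 fold change -0.21, edgeR adjusted p = 0.00295).
GABARAP, the highest of the 5 per exon length at 38.6 RPKM with shIRF2BP2 and 42.3 RPKM with scramble, had 89.0 and 85.9 CPM with shIRF2BP2, against 96.3 and 95.5 CPM with scramble (log2 fold change -0.13, edgeR adjusted p = 0.0269). The GABARAP call was lost without scramble replicate 1 (0.106), shIRF2BP2 replicate 1 (0.0658) or shIRF2BP2 replicate 2 (0.213), as edgeR adjusted p. MAP1LC3A had 11.8 and 10.4 CPM with shIRF2BP2, against 13.3 and 14.9 CPM with scramble (log2 fold change -0.34, edgeR adjusted p = 0.0488), and its call was lost without scramble replicate 2 (0.218), shIRF2BP2 replicate 1 (0.0568) or shIRF2BP2 replicate 2 (0.271), as edgeR adjusted p. The estimates of both genes stayed below 0 in all 12 alternatives, between -0.18 and -0.10 for GABARAP and between -0.43 and -0.25 for MAP1LC3A. The GABARAPL2 call held when any 1 library was left out.
MAP1LC3B, the form used most often to count autophagosomes, had 112 and 106 CPM with shIRF2BP2 and 111 and 113 CPM with scramble, with an interval of -0.13 to 0.05. Its near-identical copy MAP1LC3B2 had 0 counts in every library. GABARAPL1 had 12.7 and 14.2 CPM with shIRF2BP2 and 16.0 and 14.4 CPM with scramble and was not called (log2 fold change -0.18, edgeR adjusted p = 0.248). Transcript levels say nothing of the lipid-bound form of these proteins.

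**Figure D4:**
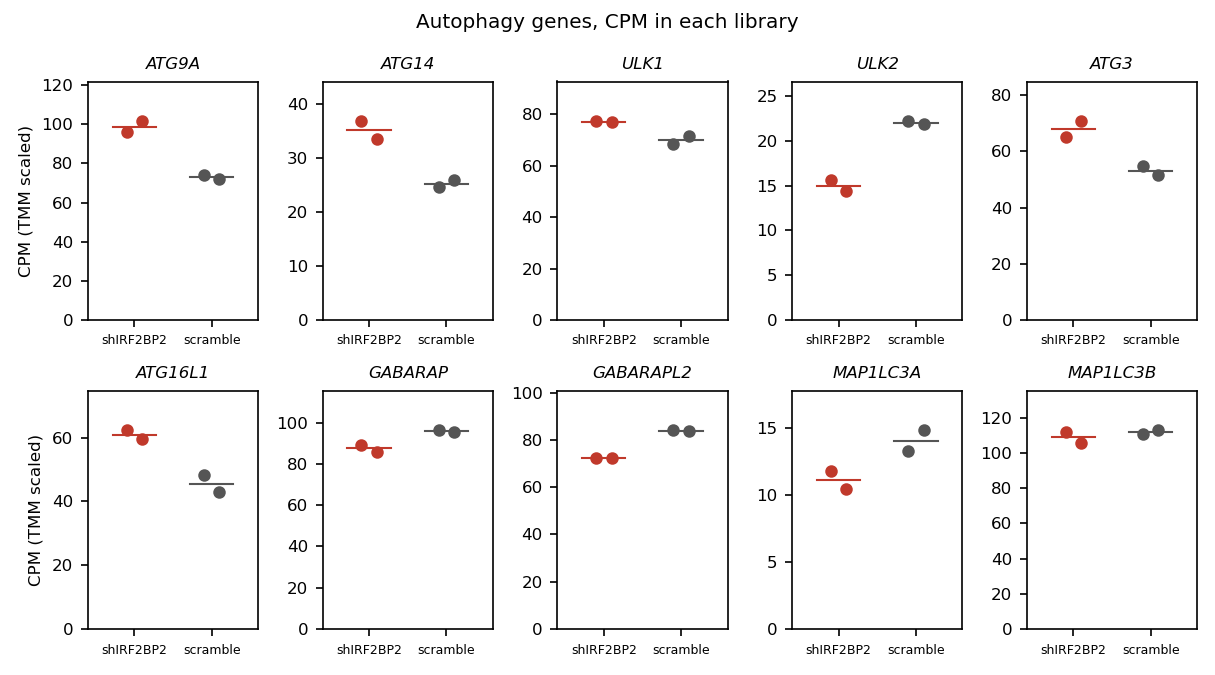
CPM of 10 autophagy genes in each library, with shIRF2BP2 (red) left of scramble (grey), a line at each mean and axes from 0. ATG9A, ATG14, ULK1, ATG3 and ATG16L1 are higher in both shIRF2BP2 libraries, ULK2, GABARAP, GABARAPL2 and MAP1LC3A are lower in both, and the groups of MAP1LC3B overlap.

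Other autophagy machinery outside the set counted 8 higher (30.8%), 5 lower (19.2%) and 13 uncalled genes among 26 tested (median -0.08). Of protein-coding genes 26.1% were higher and 24.9% lower. The lower count was 3 without shIRF2BP2 replicate 1, 2 without shIRF2BP2 replicate 2 and 3 without scramble replicate 1. The ATG8-processing protease gene ATG4D (1.05), ATG101 of the ULK complex (0.64) and the lipid transfer gene ATG2A (0.46) rose on the log2 scale, and ATG4C (-0.56), ATG10 (-0.40) and ATG16L2 (-0.32) fell. Among 21 cargo receptor genes 5 (23.8%) rose, 7 (33.3%) fell and 9 stayed uncalled (median -0.05). SQSTM1, the p62 receptor of ubiquitinated cargo, averaged 309.5 ± 7.63 CPM with shIRF2BP2 and 153 ± 6.11 CPM with scramble (SD, n = 2 libraries each; log2 fold change 1.01, edgeR adjusted p = 1.64e-08). TOLLIP (1.02) and CCPG1 (0.35) also rose, whereas NBR1, a receptor that works with p62, fell by 0.55, the mitophagy receptor gene BNIP3L by 0.63 and OPTN by 0.57. Both SQSTM1 and TOLLIP rose by more than any called member of the 57.

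Among 47 genes of mTORC1 and of TFEB regulation 12 (25.5%) rose, 13 (27.7%) fell and 22 stayed uncalled (median -0.03). These shares were close to the 26.1% and 24.9% of protein-coding genes. SEC13, shared by the amino acid sensing complex GATOR and the secretory coat (0.90), the leucine sensor and stress gene SESN2 (0.87) and FLCN, which restrains TFE3 and TFEB through the Rag GTPases (0.80), rose on the log2 scale. SESN3 (-0.83), MIOS (-0.59) and BMT2, the sensor of S-adenosylmethionine (-0.56), fell. Without shIRF2BP2 replicate 2 the lower count in this list was 8 in place of 13. Among 32 sorting and fusion genes 12 (37.5%) rose, 5 (15.6%) fell and 15 stayed uncalled (median 0.04). The mannose 6-phosphate receptor gene M6PR (0.98), NAGPA, the enzyme that uncovers the mannose 6-phosphate tag (0.58), and VPS18 of the tethering complex (0.44) rose, whereas the syntaxin gene STX7 (-1.48), GNPTAB, which makes the tag (-1.11), and the sorting receptor gene SORT1 (-1.09) fell. IGF2R, the other mannose 6-phosphate receptor gene, rose by 0.21, and GNPTG, the partner of GNPTAB, was not called (0.04). Over all 206 other pathway genes tested, 58 (28.2%) were higher and 49 (23.8%) lower, with a median log2 fold change of -0.01.

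**Figure D5:**
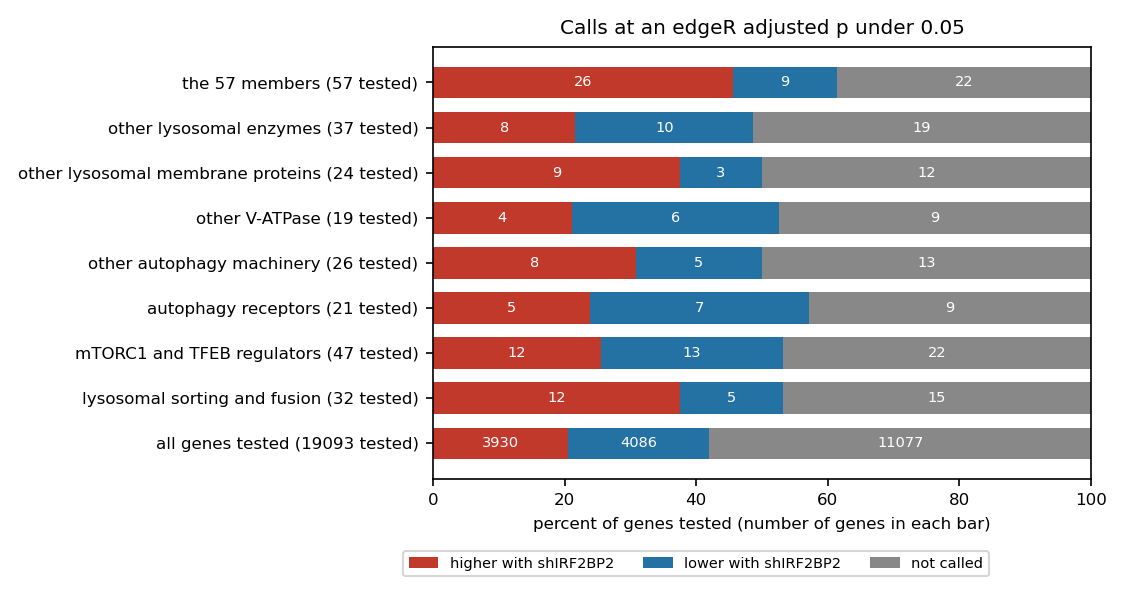
Share of tested genes called higher, called lower or not called at an edgeR adjusted p under 0.05, for the 57 members, for 7 lists of other genes of the pathway and for all genes tested; numbers in the bars count genes. The members have 26 higher and 9 lower, the other lists have between 4 and 12 higher and between 3 and 13 lower, and all genes have 3930 higher and 4086 lower.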

How the data were processed

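The authors deposited raw counts per gene, with 1 column per library and no pooling. HISAT2 version 2.2.0 and build hg38 are named per the submitters' processing notes, and the read counter is not given in the sources used here, nor is the annotation. Per the labels' protocols, RNA extraction used TRIzol and libraries were built with an Illumina TruSeq RNA kit. That kit leaves strand unmarked, so reads of overlapping genes on opposite strands cannot be told apart. Columns lettered NC, an abbreviation the labels leave unexplained, were assigned to scramble as the only other group, and column numbers were matched to those in the titles. Symbols were found for 56105 of 64252 identifiers. Coordinates and exon lengths came from GENCODE 29 on GRCh38, which holds 56591 of them.

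The 2 shIRF2BP2 and 2 scramble libraries were compared with edgeR 4.0.16 in R 4.3.3 (filterByExpr, TMM scaling with factors between 0.996 and 1.00, robust quasi-likelihood F-test, two-sided, no block), with Benjamini-Hochberg adjustment over 19093 genes and a threshold of 0.05. In counts simulated for 2 libraries per group with few changed genes, the share of false calls among all calls was well above this threshold. It was not measured by distance from the threshold. The real fit called 8016 genes, so the simulated share does not carry over. The share of false calls in these data is not known, and calls near the threshold are uncertain. Standard errors were taken as |log2 fold change| over root F, and intervals are 95%. CPM use TMM-scaled library sizes of the genes tested, and RPKM divide them by the union of exons. The estimated biological coefficient of variation was 9.52%. Chi-square per degree of freedom was 5.67 within the shIRF2BP2 pair and 7.66 within the scramble pair, more than counting noise. Alternatives used DESeq2 1.42.0, limma 3.58.1, other scalings and filters, a replicate block, and 1 library left out.

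The 57 members and all lists were chosen with earlier results of these data known. Values in every library are given for the TFEB family and, per role, for up to 4 called members with the largest change whose mean reached 5 CPM in either group, the highest member per exon length and the most abundant member not called. BECN1, GABARAPL1, NEU1 and ATP6V1H were given in every library outside this rule, and ATP6V1B2 too, chosen after their values were seen, as were IGF2R, GNPTG and TCIRG1 of the pathway lists. Up to 3 called genes per direction are named from each pathway list. A gene that this rule would name is not reported here. Reads of genes with near-identical copies or pseudogenes may have been divided by the counting.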

Additional observations from a re-analysis of the deposited data

How the results depend on the processing

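No member changed direction with a call in any of the 12 alternatives that tested it, and 21 of the 26 higher, 6 of the 9 lower and 17 of the 22 members not called kept their side of the threshold in all of them. The exceptions among the called members were GRN, ULK1, ATP6V1D, ATP6AP1, SMPD1, GABARAP, MAP1LC3A and ATP6V1B2. CTSF, GLB1, NEU1, ATP6AP2 and ATG5 gained a call in some. The count of higher members lay between 22 and 27 and that of lower members between 6 and 12, and the median of the set between 0.11 and 0.18. Upper quartile scaling gave 22 higher and 12 lower members, with the median of all genes at -0.06.

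With 1 library left out the ranges were 22 to 26 higher and 6 to 9 lower members, 5 to 9 higher and 6 to 9 lower other lysosomal enzymes, 2 to 6 higher and 3 to 5 lower other V-ATPase genes, 2 to 4 lower genes of other autophagy machinery, and 8 to 14 lower mTORC1 and TFEB regulators. Upper quartile scaling gave 8 lower genes of other autophagy machinery in place of 5, and 8 lower sorting and fusion genes in place of 5, as did a mean of at least 10 CPM for sorting and fusion. The DESeq2 Wald test gave 3 lower other V-ATPase genes in place of 6 and 3 lower genes of other autophagy machinery in place of 5. The cause was not tested.

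The replicate block gave 27 higher and 8 lower members and 3950 higher and 3950 lower genes of all tested. Deviations of same-numbered libraries correlated at 0.06 over genes, with 2 pairs only, so the numbers were not taken to pair the libraries. With 2 libraries per group, an exact permutation test of a single gene could not pass the threshold, and genes under 3 CPM such as CTSZ had intervals too wide to show changes of the size seen in the set.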
